A study of Mus musculus with 2 samples.

Results

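The genes described here are 54 genes of the actin cytoskeleton, chosen by name from their known roles, with earlier results of these data known. They were all listed among the 10402 genes of the deposited expression table, and they all reached 1 FPKM in at least 1 library. FPKM is the number of sequenced fragments of a gene per length of its transcript and per number of mapped fragments. RNA came from mouse peritoneal macrophages taken 3 days after elicitation with an agent named ThG in the labels, and the cells had not been activated in culture. The labels hold 1 library with the genotype ECM1-sufficient and 1 library with the genotype ECM1-deficient. ECM1, extracellular matrix protein 1, is a secreted glycoprotein. The allele, strain, sex, age and number of mice behind each library are not given in the sources used here. With 1 library per genotype no replicate error can be given, no test was run, and all values below come from single libraries. Where a sentence gives a pair of values, the ECM1-sufficient library comes first.

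Actin is present in cells as single molecules and as filaments, which grow at their barbed end and are taken apart at the other. Profilin, cofilin and thymosin beta 4 govern the pool of single molecules, the Arp2/3 complex starts branches on existing filaments, and capping proteins stop growth. Macrophages use these filaments to crawl, to ruffle their membrane, to build adhesive podosomes and to engulf particles.

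In the ECM1-deficient library most actin cytoskeleton genes had more FPKM, and so did most genes of the table. Of the 54 genes, 50 were above their ECM1-sufficient level and 4 below it. The difference of a gene is its log2(FPKM + 1) when ECM1 was deficient less its log2(FPKM + 1) when ECM1 was sufficient, and a gene is called higher or lower when the difference reaches 1 in size, which is 2-fold in FPKM + 1. By this measure 16 of the 54 were higher and 0 were lower, against 14.8% of all 9032 genes higher and 2.17% lower. Their median difference was 0.81, against 0.61 over all genes. These genes are well expressed, and the measure understates differences of weakly expressed genes. Over genes at 5 FPKM or more the same count was 16 of 51 members, against 22.4% of all genes, with medians of 0.82 and 0.74. The share called higher in the background thus itself depends on the level of expression.

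Because the whole table was shifted, differences were also taken relative to the median gene, which had 1.73 times the FPKM when ECM1 was deficient. On that scale 4 members were higher, Arpc4, Pfn1, Actg1 and Csrp1, and 1 was lower, Capzb. The background was 2.45% of all genes higher and 4.77% lower. The median member lay at 0.05 and the median of all genes at 0.03. Within 0.5 of the median gene lay 40 of the 54 members, or 74.1%, against 78.1% of all genes. The actin genes as a group thus sat close to the common shift, and the members that stood away from it were few.

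**Figure D1:**
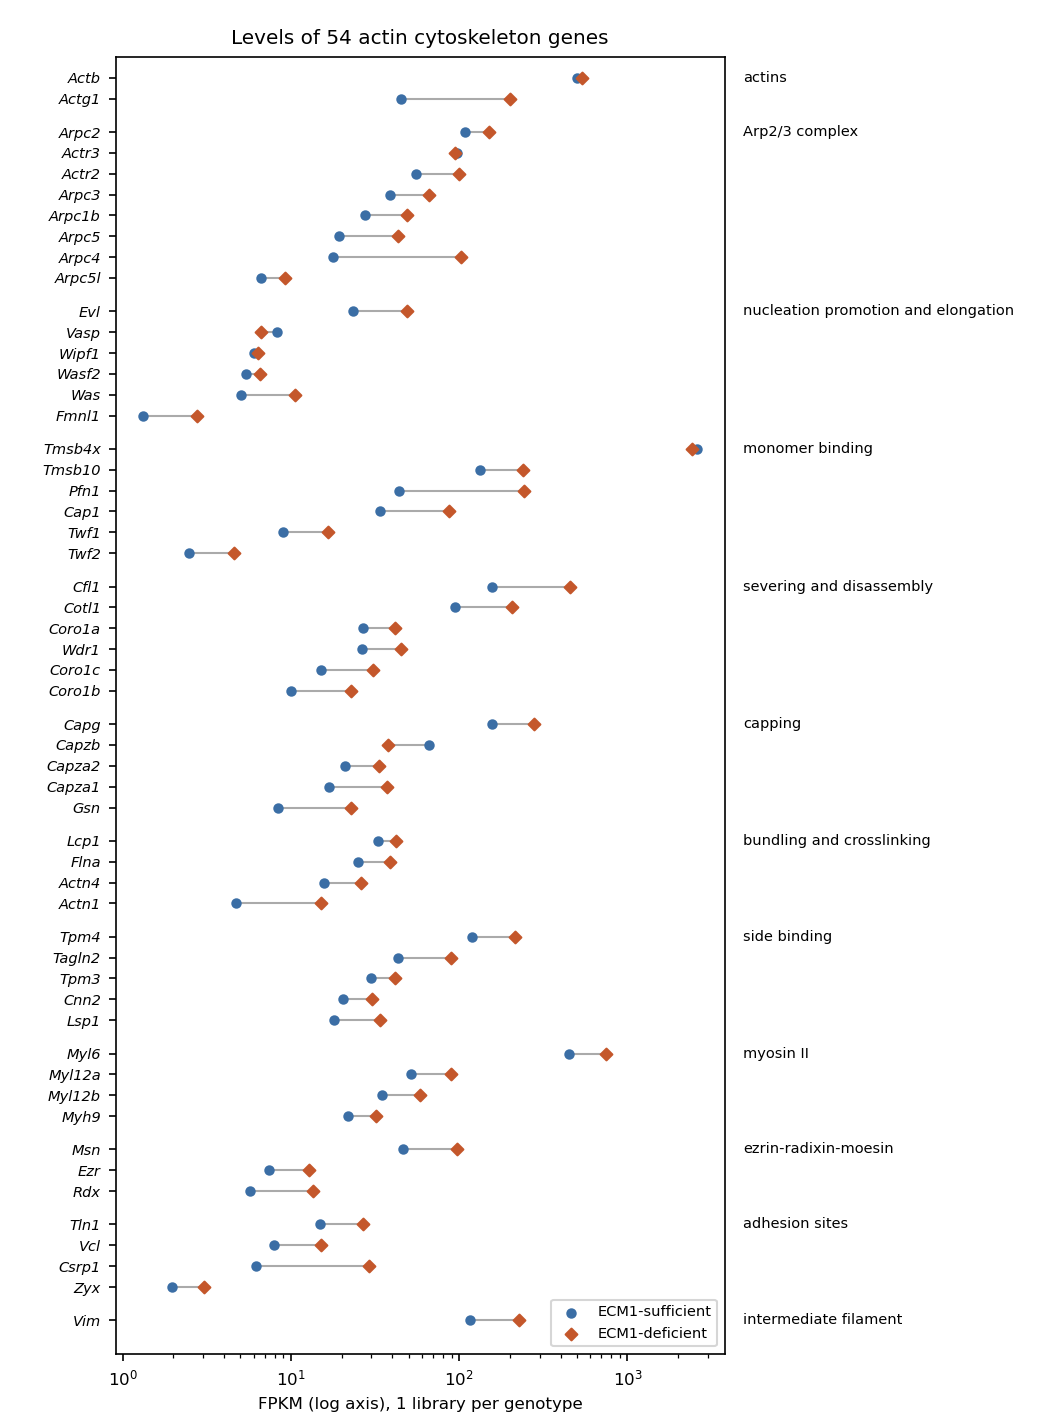
FPKM of the 54 genes on a log axis, grouped by role, in the ECM1-sufficient library (blue circles) and the ECM1-deficient library (red diamonds), with 1 library per genotype and a grey line joining the values of a gene. The longest lines belong to Arpc4, Pfn1, Csrp1 and Actg1, and the diamond lies left of the circle for Tmsb4x, Actr3, Vasp and Capzb.

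Facts of the whole table bear on these values as follows. All FPKM summed to 137135 and 187612, a ratio of 1.37, and the number of reads is unknown. Ecm1 itself was at 5.63 and 1.02 FPKM, the direction its genotype labels give. All 8 macrophage markers were measured, and their FPKM summed to 515 and 923. Of 12 smooth muscle and myofibroblast markers 7 were listed, with sums of 32.0 and 56.4 FPKM, and of 13 mesothelial and fibroblast markers 7 were listed, with sums of 71.1 and 135. Of the smooth muscle list Acta2 was at 3.61 and 7.78 FPKM, Tagln at 7.31 and 16.7, and Des at 9.91 and 15.6. Tpm2, Cald1, Acta1 and Myl9 were also listed, at lower levels than Des. Myh11, Cnn1 and Actg2, which define smooth muscle, and Msln and Krt19, which mark mesothelium, were not listed in the table used here. That table holds no gene with very low FPKM in both libraries, so an unlisted gene is not shown to be unexpressed. The mesothelial gene Upk3b was at 0.585 and 1.56 FPKM. The 6 fibroblast genes listed ranged from 1.08-fold higher with ECM1 deficiency for Col1a1, a difference of -0.62 relative to the median gene, to 4.86-fold for Pdgfra, at 1.57 and 7.62 FPKM, and the most abundant was Sparc at 32.4 and 66.0 FPKM. Of the neutrophil list 3 of 8 were listed, with sums of 6.40 and 8.52 FPKM, of the B cell list 3 of 6, with 3.67 and 9.52, and of the erythroid list 4 of 5, with 3.02 and 2.02. Of the T and NK cell list Il7r alone was listed, at 60.3 and 107 FPKM, and of the platelet list Pf4 alone, at 26.0 and 43.9. The part of such cells in the differences below was not tested. In such bulk samples fewer cells of a type and less RNA per cell cannot be told apart.

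Before an annotated RefSeq start of 5 members lies a CArG box, the site bound by serum response factor, a transcription factor known to drive actin and actin-binding genes. The stretches are shown because 2 of these members, Arpc4 and Actg1, are among the 4 members with the largest differences. Promoters of 250 bases before to 50 after the annotated start were read from RefSeq on GRCm38.p6, and 48 of the 54 members matched. The pattern searched is its own reverse complement, so each match counts for both strands, although the letters of a single box can differ between them. The box is 10 bases long and is printed in capitals with up to 25 bases on either side.
Actg1: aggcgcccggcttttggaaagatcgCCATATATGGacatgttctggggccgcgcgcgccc
Arpc4: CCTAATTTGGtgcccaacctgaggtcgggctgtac
Vcl: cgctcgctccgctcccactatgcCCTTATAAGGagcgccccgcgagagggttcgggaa
Myl6: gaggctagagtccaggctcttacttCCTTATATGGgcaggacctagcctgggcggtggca
Cnn2: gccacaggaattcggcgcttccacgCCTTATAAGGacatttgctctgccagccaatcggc
The printed stretches are chr11:120348551-120348610 on the minus strand, chr6:113377863-113377897 on the plus strand, chr14:20929148-20929205 on the plus strand, chr10:128493025-128493084 on the minus strand and chr10:79988519-79988578 on the plus strand. The box begins 90 bases before the RefSeq start of Actg1, 250 before that of Arpc4, 227 before that of Vcl, 50 before that of Myl6 and 56 before that of Cnn2. Myl6 has 2 RefSeq starts, and its printed stretch lies before the inner one, inside the deposited gene model, whereas the other 4 stretches lie outside theirs.

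Such a box was found in 5 of 48 members, or 10.4%, and in 1.81% of the 27025 genes with a promoter sequence. The 5 genes did not share a difference. Arpc4 was at 2.45 and Actg1 at 2.11, whereas Vcl was at 0.85, Myl6 at 0.73 and Cnn2 at 0.56. Their median of 0.85 compares with 0.81 for the 43 members without the box. Over the measured genes with a promoter sequence, the median was 0.62 for the 108 with a box and 0.62 for those without. A match in these letters is a description of the sequence and not a binding site. Cotl1, Lsp1, Arpc5l, Coro1b, Twf2 and Actb had no entry.

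The actins differed from each other. Actb encodes beta-actin and lies on chromosome 5 from 142903115 to 142906754 in GRCm38. Its level was 501 and 535 FPKM, a difference of 0.09, and 7974 of the 9032 genes had a larger difference. Relative to the median gene Actb lay at -0.69. Actg1, on chromosome 11 from 120345690 to 120348542, encodes gamma-actin, which differs from beta-actin by a few residues near the amino end. It was at 45.3 and 199.6 FPKM, 4.40-fold higher in the ECM1-deficient library, and 97 genes had a larger difference. The ratio of Actb to Actg1 was thus 11.1 and 2.68. Gamma-actin made up 8.29% of the FPKM of both genes in the ECM1-sufficient and 27.2% in the ECM1-deficient library. Actg1 has near-identical copies. Of its transcript stretches of 50 bases, 37.4% also occur in transcripts of other annotated genes, among them 12 pseudogenes, against 9.12% for Actb, so the value of Actg1 depends on how such reads were assigned.

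The Arp2/3 complex holds 7 subunits in equal number, the actin-related proteins Actr2 and Actr3 and the supporting subunits Arpc1 to Arpc5. Its 8 listed genes had a median difference of 0.78, and 2 were called higher and 0 lower. Arpc4, which with Arpc2 forms the core that holds the complex to the mother filament, was at 17.8 and 101.8 FPKM, 5.72-fold higher with ECM1 deficiency. It lies on chromosome 6 from 113378115 to 113390448, and 10% of its 50-base stretches are shared, all with the overlapping gene Ttll3. Arpc5 was the other higher subunit, at 19.3 and 42.9 FPKM.

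Of the remaining subunits, Actr2, Arpc1b and Arpc3 were close to the common shift, whereas Actr3 lay further below it than Arpc5 lay above it. Actr2 was at 55.3 and 99.6 FPKM, Arpc1b at 27.3 and 49.0, and Arpc3 at 38.6 and 65.7. Arpc2 was at 109 and 150 FPKM, which placed it 0.32 below the median gene on the log2 scale. Actr3 was at 96.5 and 94.0 FPKM, a difference of -0.82 relative to the median gene. The ratio of Actr3 to Actr2 went from 1.75 in the ECM1-sufficient to 0.94 in the ECM1-deficient library. Of the 50-base stretches of Actr3, 26.3% are shared. Arpc5l, the alternative to Arpc5, was at 6.67 and 9.18 FPKM and made up 25.7% and 17.6% of the FPKM of that position.

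Summed over alternative forms, with Arpc1a added to Arpc1b, the 7 positions spanned 17.8 to 109 FPKM in the ECM1-sufficient library, 6.10-fold from Arpc4 to Arpc2. In the ECM1-deficient library they spanned 52.1 to 150 FPKM, 2.87-fold from Arpc5 to Arpc2. The levels of the subunit genes were thus closer to each other in the ECM1-deficient library, and Arpc4 moved from the lowest position to the second highest.

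**Figure D2:**
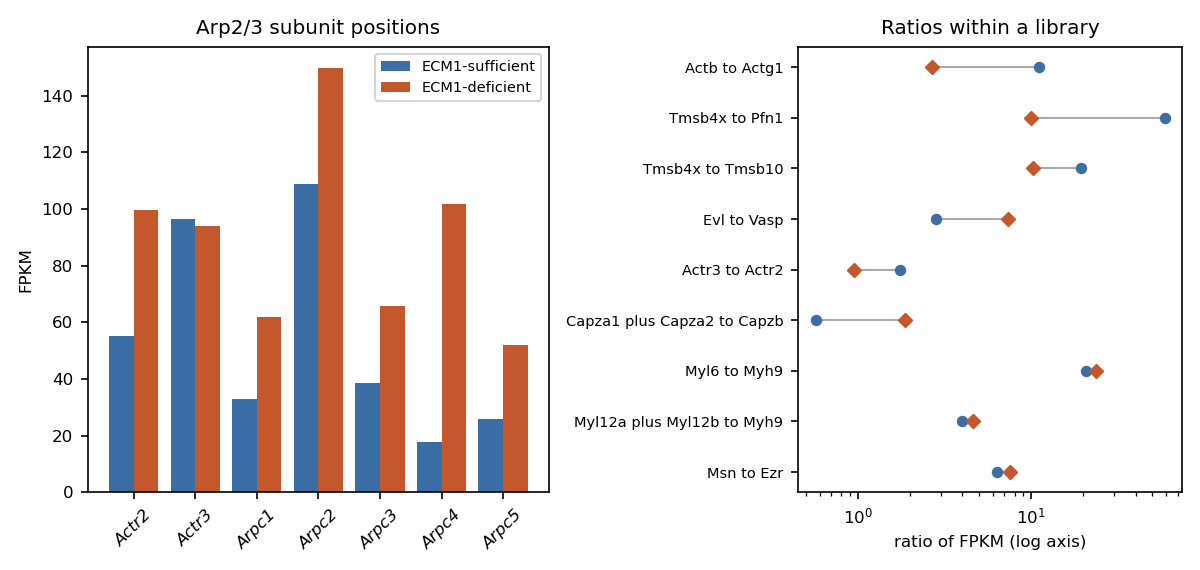
Left, FPKM of the 7 Arp2/3 subunit positions, with alternative forms summed, in the ECM1-sufficient (blue) and ECM1-deficient (red) library. Right, ratios of FPKM between partner genes within each library on a log axis, blue circles for ECM1-sufficient and red diamonds for ECM1-deficient; Capza1 plus Capza2 to Capzb passes from 0.567 to 1.87, while Myl6 to Myh9 stays at 20.6 and 23.5.

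Genes that switch the Arp2/3 complex on, or extend filaments, had the lowest median difference of the groups. Of 6, 1 was higher and 5 were within 2-fold, with a median of 0.47, and of -0.13 relative to the median gene. The count depends on the FPKM added, since Was, Evl and Fmnl1 were each just over 2-fold in FPKM itself, at 2.07, 2.08 and 2.10. It was 3 with 0.1 FPKM added and 0 with 5 FPKM added. Was encodes the Wiskott-Aldrich syndrome protein of blood cells and was at 5.06 and 10.5 FPKM. Wipf1, its binding partner, was at 6.02 and 6.35 FPKM, so the ratio of Wipf1 to Was was 1.19 in the ECM1-sufficient and 0.605 in the ECM1-deficient library. Wasf2, a WAVE protein that acts downstream of Rac, was at 5.39 and 6.53 FPKM, and the formin gene Fmnl1 at 1.32 and 2.77.

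Evl and Vasp, of the Ena/VASP family whose products extend barbed ends, went different ways. The family gene Enah, from the list of formins and Ena/VASP partners, was below 1 FPKM, at 0.199 and 0.541. Evl was at 23.4 and 48.6 FPKM, 2.08-fold higher in the ECM1-deficient library. Vasp was at 8.29 and 6.66 FPKM, a difference of -0.28, and of -0.97 relative to the median gene. The ratio of Evl to Vasp was 2.82 and 7.30. Vasp shares no 50-base stretch with another annotated gene, and Evl shares 7.52% with Degs2.

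Among genes for proteins that bind single actin molecules, Pfn1 stood apart. Pfn1 encodes profilin 1, which hands actin to growing ends, and lies on chromosome 11 from 70651850 to 70654644. Its level was 43.9 and 243 FPKM, 5.53-fold higher with ECM1 deficiency, with a difference of 2.44 that 59 genes exceeded. None of its 50-base stretches occurs in another annotated gene. Tmsb4x, which encodes the sequestering peptide thymosin beta 4, was the most abundant member at 2583 and 2427 FPKM, a difference of -0.09. Relative to the median gene its difference was -0.88. By level it ranked 3 and 5 among all genes. The ratio of Tmsb4x to Pfn1 was therefore 58.8 in the ECM1-sufficient and 9.99 in the ECM1-deficient library.

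Tmsb10, the related thymosin beta 10, was at 133 and 238 FPKM, and Tmsb4x was 19.4 and 10.2 times its level. Cap1, a cyclase-associated protein that recharges actin with ATP, was at 33.6 and 86.5 FPKM, 2.57-fold higher. The twinfilin genes Twf1, at 8.90 and 16.6 FPKM, and Twf2, at 2.47 and 4.60, kept their proportion, with Twf1 at 78.3% of the FPKM of both in either library.

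Genes for severing and disassembly had the highest median of the groups with at least 4 members, 1.05, with 3 of 6 higher and 3 within 2-fold. Cfl1 encodes cofilin 1, which severs old filaments, and was at 156 and 456 FPKM, 2.92-fold higher in the ECM1-deficient library. The ratio of Cfl1 to both actins was 0.286 in the ECM1-sufficient and 0.621 in the ECM1-deficient library, and that of Pfn1 to both actins was 0.0803 and 0.331. Cotl1, a coactosin that shares the cofilin fold, was at 93.9 and 205 FPKM. Wdr1, a helper of cofilin, was at 26.3 and 44.9 FPKM, close to the median gene.

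The coronins act with cofilin and the Arp2/3 complex. Coro1a, the form of blood cells, was at 26.9 and 41.3 FPKM, Coro1b at 9.97 and 22.8, and Coro1c at 15.0 and 30.9. Only Coro1b among them was called higher, and Coro1c, at 0.99, fell just short. Coro1a made up 51.8% of the FPKM of these 3 genes in the ECM1-sufficient and 43.5% in the ECM1-deficient library.

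The capping genes included the member with the lowest difference. Capzb encodes the beta subunit of the capping protein that blocks barbed ends, and lies on chromosome 4 from 139192899 to 139291818. Its level was 66.4 and 37.5 FPKM, 1.77-fold lower with ECM1 deficiency, with a difference of -0.81, or -1.58 relative to the median gene. The partner alpha subunits went the other way. Capza1 was at 16.8 and 37.0 FPKM and Capza2 at 20.8 and 33.1. The protein pairs 1 alpha with 1 beta chain, and the ratio of alpha to beta FPKM was 0.567 in the ECM1-sufficient and 1.87 in the ECM1-deficient library. Capzb shares no 50-base stretch with another gene, whereas Capza1 shares 64.5%, most of it with a pseudogene.

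Gelsolin, encoded by Gsn, severs and caps in response to calcium and was at 8.38 and 22.8 FPKM, 2.71-fold higher in the ECM1-deficient library. Capg, a gelsolin relative abundant in macrophages, was at 157 and 277 FPKM, a difference of 0.82.

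**Figure D3:**
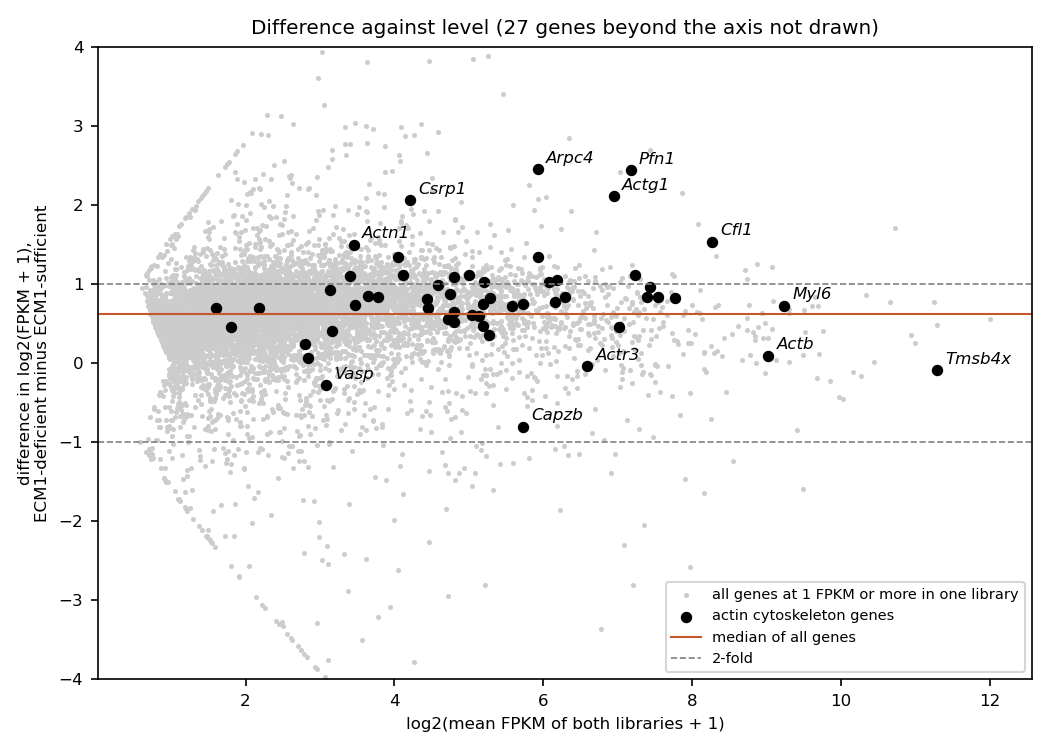
Difference in log2(FPKM + 1), ECM1-deficient minus ECM1-sufficient, against log2 of the mean FPKM of both libraries plus 1, for all genes (grey) and the 54 actin cytoskeleton genes (black). The red line is the median of all genes at 0.61 and dashed lines mark 2-fold; Arpc4, Pfn1, Actg1 and Csrp1 lie above 2 and Capzb at -0.81.

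Crosslinking and bundling genes had 1 of 4 higher, with a median of 0.65. Actn1, an alpha-actinin that ties filaments in parallel, was at 4.72 and 15.2 FPKM, 3.21-fold higher in the ECM1-deficient library. Its close relative Actn4 was at 15.8 and 26.1 FPKM, and the share of Actn1 in the FPKM of both went from 23.0% to 36.7%. Lcp1, the L-plastin of white blood cells, was at 32.8 and 42.1 FPKM, and Flna, the network crosslinker filamin A, at 25.1 and 38.7. Lcp1 lay 0.42 below the median gene on the log2 scale.

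Proteins that lie along filaments had 1 of 5 higher. It was Tagln2, transgelin 2, at 43.3 and 89.2 FPKM. Tpm4, a short tropomyosin, was at 119 and 214 FPKM and Tpm3 at 29.7 and 41.6. Lsp1, a leukocyte protein of podosomes, was at 18.0 and 33.6 FPKM and Cnn2, a calponin, at 20.4 and 30.4.

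Genes of non-muscle myosin II, the motor that contracts actin bundles, kept together more closely than any other group with at least 4 members. Their differences ran from 0.52 to 0.77, and 0 of 4 were higher or lower. The heavy chain gene Myh9 was at 21.9 and 31.8 FPKM, and the essential light chain gene Myl6 at 451 and 748. The regulatory light chain genes were at 51.8 and 89.0 FPKM for Myl12a and at 34.9 and 58.4 for Myl12b. Myl12a and Myl12b share 16.2% to 17.6% of their 50-base stretches with each other, so their split is uncertain. The ratio of Myl6 to Myh9 was 20.6 and 23.5, and that of both regulatory chains to Myh9 was 3.96 and 4.63. All 4 genes lay between -0.24 and -0.01 relative to the median gene.

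Ezrin, radixin and moesin tie filaments to the plasma membrane. Msn was at 46.4 and 97.0 FPKM and Rdx at 5.71 and 13.4, both higher, and Ezr was within 2-fold at 7.36 and 12.9. Moesin, the main form in white blood cells, made up 78.0% of the FPKM of these 3 genes in the ECM1-sufficient and 78.7% in the ECM1-deficient library.

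At adhesion sites, where integrins meet actin, Csrp1 stood apart from the others. Csrp1 encodes a small LIM protein that binds alpha-actinin and zyxin and is best known from smooth muscle. It lies on chromosome 1 from 135720061 to 135752232 and was at 6.17 and 28.9 FPKM, 4.68-fold higher in the ECM1-deficient library, with no shared 50-base stretch. Tln1, the integrin activator talin, was at 14.8 and 26.7 FPKM, Vcl, vinculin, at 7.91 and 15.1, and Zyx, zyxin, at 1.95 and 3.06. The 6 measured genes of the smooth muscle list had a median of -0.04 relative to the median gene, from -0.53 for Acta1, at 3.42 and 3.68 FPKM, to 0.37 for Tagln, at 7.31 and 16.7. The part of such cells in the value of Csrp1, which lay at 1.34 on that scale, was not tested. Vim encodes vimentin, an intermediate filament protein and not an actin binder by class, and was at 116 and 227 FPKM, a difference of 0.97.

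No property of the gene models followed the differences closely. Across the 54 genes Spearman's rank correlation with the difference was 0.13 for mean FPKM, -0.09 for the length of the longest transcript, -0.10 for the number of exons and 0.17 for the share of 50-base stretches found elsewhere. These are descriptions over genes of the same 2 libraries and carry no test. Of the 8 members that share 20% or more of their stretches, 2 were higher, and of the 18 that share none, 5 were higher.

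The 54 members held 3.97% of all FPKM in the ECM1-sufficient and 4.02% in the ECM1-deficient library. Without Tmsb4x the other 53 held 2.09% and 2.72%. The summed FPKM of those 53 had a ratio of 1.78, deficient to sufficient, and that of all 54 members 1.38, against 1.37 for all FPKM summed. The median of the ratios of single genes, another measure, was 1.73.

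Other genes of the pathway, from lists of names, were described in the same way. The calls compare with 14.8% of all 9032 genes called higher and 2.17% called lower. With the common shift divided out by the median ratio, each list here, tubulins left aside, had 0 genes called higher. By that measure 3 genes of actin binding and turnover and 1 adhesion gene, Parvb, were lower. The background on that scale was 2.45% of all genes higher and 4.77% lower. The medians then ran from 0.02 for formins and Ena/VASP partners to 0.18 for adhesion and podosome genes. Of 18 genes of the WAVE, WASP and WASH complexes and their partners 4 were higher and 0 lower, with a median of 0.77. These were Abi1 at 12.2 and 34.5 FPKM, Nckap1l, the WAVE subunit of blood cells, at 19.2 and 41.1, the cortactin relative Hcls1 at 38.3 and 85.1, and Washc5, a WASH subunit listed under an older symbol, at 4.77 and 11.5. The other 4 WASH genes were within 2-fold, with differences from 0.25 for Washc3 to 0.93 for Washc1. Of 11 formins and Ena/VASP partners 1 was higher, the adaptor gene Fyb at 4.37 and 10.7 FPKM, and 0 were lower, with a median of 0.53.

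Of 32 other genes of actin binding and turnover 8 were higher and 2 lower, with a median of 0.72. The largest were Add1, an adducin of the spectrin network, at 3.36 and 11.4 FPKM, and Dbn1, drebrin, at 0.524 and 2.46. The lower ones were Marcksl1, which binds actin and the membrane, at 7.88 and 2.55 FPKM, and Actr1a, an actin-related protein of the dynactin complex that acts with microtubules, at 13.8 and 5.84. Among 11 further myosins 1 was higher, the macrophage myosin gene Myo1f at 17.0 and 36.7 FPKM, and 0 were lower.

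Of 18 adhesion and podosome genes 3 were higher and 1 was lower, with a median of 0.66. The parvins, which link integrin-linked kinase to actin, went opposite ways, with Parvg at 1.68 and 5.87 FPKM and Parvb at 3.08 and 0.912. Fermt3, the kindlin of blood cells, was at 9.35 and 23.9 FPKM, and Ilk, integrin-linked kinase, at 12.2 and 27.6. Of 6 genes for serum response factor, its coactivators and its partner factors, 0 were higher or lower. The partner factor gene Elk4 was at 5.08 and 6.31 FPKM, Elk3 at 2.38 and 4.16, and Srf itself at 1.52 and 3.41. Srf and Elk1, the latter at 1.32 and 3.04 FPKM, were 2.24-fold and 2.30-fold higher in FPKM itself. With 1 FPKM added both fell short of 2-fold. The coactivator gene Mkl2 went the other way, at 3.46 and 2.40 FPKM, a difference of -0.39 and of -0.97 relative to the median gene.

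**Figure D4:**
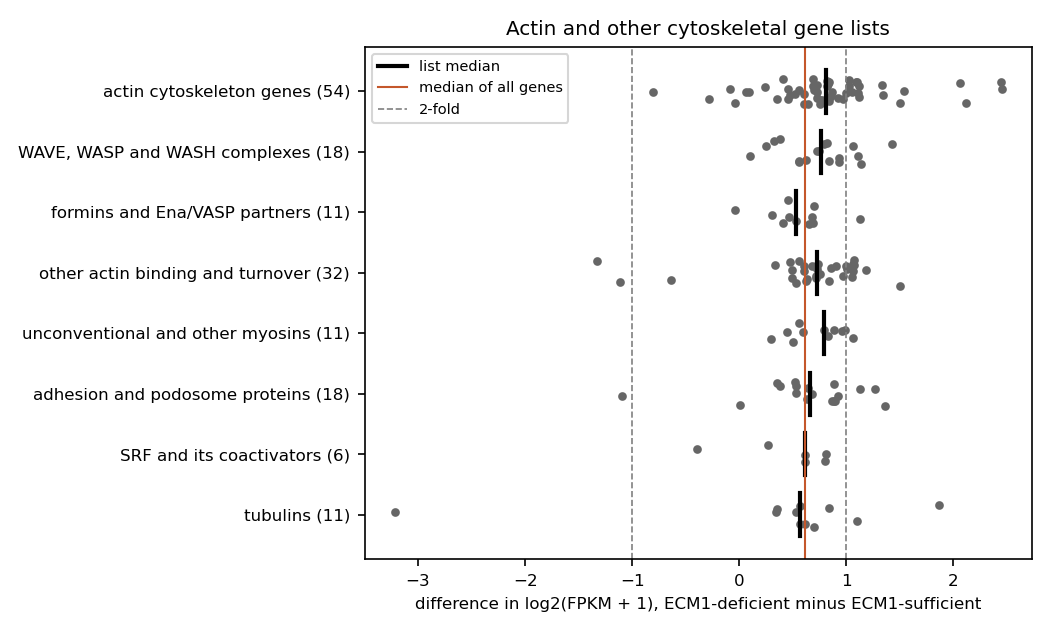
Difference in log2(FPKM + 1), ECM1-deficient minus ECM1-sufficient, for each measured gene of the actin cytoskeleton and of 7 further lists, with the number of genes in brackets, a black bar at each list's median, a red line at the median of all genes and dashed lines at 2-fold. The medians run from 0.53 for formins and Ena/VASP partners to 0.81 for the actin cytoskeleton genes.

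The authors' deposited table of gene ontology terms lists actin terms among genes with more FPKM in the ECM1-deficient library. The 4183 genes it names that are in the expression table all had a difference of 0.585 or more, which is 1.5-fold. At that threshold 40 of the 54 members were higher, against 53.7% of the 9032 genes at 1 FPKM or more. Over all 10402 genes, with no FPKM minimum, the share was 47.5%. The authors' deposited table gives actin cytoskeleton organization 166 of 519 genes, a fold enrichment of 1.51 and a false discovery rate of 3.62e-09. Likewise in the authors' deposited table, Arp2/3 complex-mediated actin nucleation had 16 of 28 genes and a fold enrichment of 2.69, and barbed-end actin filament capping had 10 of 16 genes and 2.95. The background in the authors' deposited table was 23313 genes, more than the 10402 genes with FPKM here, so it also holds genes with no FPKM in the table used here. The authors' list held 4944 of the 23313, whereas 47.5% of the 10402 genes passed 1.5-fold. How far the enrichments reflect expression itself was not tested.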

How the data were processed

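FPKM per gene were computed by the authors, in 1 library per genotype. HISAT2, StringTie 1.2.3 and the build mm9 are named in the submitters' processing notes, with no order. Of 10403 gene identifiers 10384 are in GENCODE M21, and each of these overlapped its gene there, so positions are given as GRCm38. RNA was selected with oligo(dT) and the kit was stranded, per the labels' protocol. The strand setting of the counting, the read length and the treatment of reads with several matches are not given in the sources used here.

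The authors also deposited log2(FPKM + 1), a log2 fold change with its linear ratio, and p-values and q-values that are 1 for each gene. The gene ontology table, deposited by the authors, holds gene numbers, fold enrichments, p-values and false discovery rates. A gene set table for arginine and proline was not used.

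Linear FPKM were analysed with Python 3.11.15, pandas 2.3.3 and numpy 2.4.6. Rows of a symbol were summed, 1 FPKM was added, and 9032 genes reaching 1 FPKM in either library were kept. For values relative to the median gene, the median ratio of 7329 genes reaching 1 FPKM in both libraries was divided out, split evenly between the libraries before 1 was added. Shared sequence is the percentage of distinct 50-base stretches of a gene's GENCODE transcripts that occur, on either strand, in transcripts of other genes. Only the division by the median ratio and the calls made after it were checked on simulated data, with changes larger than the 2-fold threshold.

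The members and gene lists were chosen with earlier results of these data known, so neither their choice nor their direction is independent support. Each member is named. One further list is not reported here. Symbols of 7 list genes were matched to the table's older symbols by gene identifier, which was done after seeing the data. From each further list up to 4 genes past 2-fold were named by size, or 2 by level where none was. Srf, Elk1, Mkl2, Enah and the named WASH genes within 2-fold were chosen after their values were seen. So were the named marker genes and the pairs of genes set in ratios. Alternatives changed the added FPKM, the minimum, the scaling, the threshold, repeated symbols and the members kept.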

Additional observations from a re-analysis of the deposited data

How the results depend on the processing

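Members called higher numbered 16, and the count was 9 with 5 FPKM added, 4 after division by the median ratio, 6 with FPKM rescaled to equal sums, 40 at 1.5-fold and 4 at 4-fold. The shares of all genes higher were 2.45% after division by the median ratio, 4.22% with equal sums, 53.7% at 1.5-fold and 1.21% at 4-fold. Members called lower numbered 0, and 1, Capzb, after division by the median ratio, with equal sums and at 1.5-fold. The shares of all genes lower at these 3 settings were 4.77%, 3.28% and 3.68%. The median difference of 0.81 was 0.84 with 0.1 FPKM added, 0.69 with 5 FPKM added, 0.82 with a minimum of 5 FPKM, 0.054 after division by the median ratio and 0.38 with equal sums. With 0.1 FPKM added, 19 members were higher, against 32.6% of all genes, and with 5 FPKM added the share of all genes was 3.17%. With 5 FPKM added the higher genes went from 2 to 0 among ezrin, radixin and moesin, from 1 to 0 among side-binding genes, from 2 to 1 among capping and among Arp2/3 genes, and from 3 to 2 among severing genes. Keeping members that share under 20% of their 50-base stretches gave a median of 0.78 over 46 genes, and leaving out Vim gave 0.81; both were chosen after seeing the data. No minimum, the highest row of a symbol and gene models with 3 or more exons, which all 54 members have, left counts and median as they were. Of the 16 higher calls 4 were kept after division by the median ratio and 6 with equal sums. None of the 16 members changed sign, but differences of 1 or more could not do so. The largest rescaling, by the median ratio, is 0.79 on the log2 scale. Among all 54, 19 changed sign after division by the median ratio and 4 with equal sums. No paired analysis was possible because each genotype has 1 library. Depth is unknown, so no counting interval is given.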

Other observations

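Tubulins, the subunits of microtubules, held the widest differences of the cytoskeletal lists described. Of 11 tubulin genes 2 were higher and 1 lower, with a median difference of 0.57. Tubb2a was at 6.41 and 26.0 FPKM in the ECM1-sufficient and ECM1-deficient library, 4.06-fold higher in the latter, and Tubb2b at 3.35 and 8.32. Tubb4b was at 23.9 and 1.68 FPKM, 14.2-fold lower in the ECM1-deficient library. The other 8 tubulin genes were within 2-fold.

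Within families of related actin genes, the proportions of some forms were nearly equal in both libraries and those of others were not. Besides the twinfilins, Myl12a made up 59.8% and 60.4% of the FPKM of both Myl12 genes. Tpm4 made up 80.1% and 83.7% of the FPKM of Tpm3 and Tpm4. Arpc1b made up 83.1% and 79.3% of that of Arpc1a and Arpc1b. Cfl1 made up 79.5% and 87.1% of the FPKM of Cfl1, Cfl2 and Dstn. The largest shifts were those of Actg1 among the actins, by 18.9 percentage points, of Evl in the sum of Evl and Vasp, by 14.2 points, and of Actn1 among the alpha-actinins, by 13.7 points. Whether such shifts recur in other mice cannot be read from 1 library per genotype.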
